A study of Mus musculus with 18 samples.

Results

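The 3 lymphomas with low Notch1 were lymphomas 7, 8 and 14 of a series of 18, all of Atm-/-, mTerc-/-, p53-/- mice. They were chosen from the arrays themselves, as the lymphomas whose mean Notch1 value was below 1 on the log2 scale, and they were set against the 15 lymphomas at 1 or above. The study's labels do not make this division. Notch1 itself is therefore described and not tested, and the comparison concerns the 18040 other genes, measured by other probes.

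All 18 lymphomas carry the same 3 deletions, of the DNA damage kinase Atm, of the telomerase RNA component mTerc (Terc in the gene table) and of p53. Total RNA of each was hybridised on 2-colour Agilent arrays, with a dye swap, against 1 common normal RNA, thymus taken at 3 weeks of age from healthy mice that were heterozygous for p53. Both sets were thus measured against the same thymus RNA, and a value is the log2 ratio of lymphoma over thymus, so that 0 means the level of thymus. The labels give neither the age of the mice nor whether each lymphoma came from a mouse of its own, so the p-values below measure the spread between these 18 samples. The direction of the ratio is not stated. Lymphoma over thymus is the likely one, because Atm is then below 0 in 17 and Terc in 18 of the 18 lymphomas. Atm was -0.55, -1.35 and -1.76 in Notch1-low lymphomas 7, 8 and 14, and -1.23 at the lowest, -0.61 at the median and 0.56 at the highest in Notch1-high lymphomas. Terc was -1.53, -1.61 and -2.60 in the Notch1-low lymphomas, and -2.15, -1.44 and -0.28 at the lowest, median and highest in the Notch1-high ones. Neither Atm nor Terc passed the test between the sets (adjusted p = 0.206 and 0.397).

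Notch1 is a receptor on the cell surface. When a ligand of a neighbouring cell binds it, proteases including gamma-secretase cut it and its intracellular part enters the nucleus, where it joins the DNA-binding protein RBPJ and a Mastermind protein to switch on genes. In the thymus this signal commits progenitors to the T lineage and carries them through the step at which the pre-T cell receptor is tested, and in T cell leukaemia of mouse and human the receptor is often made active by mutation. Genes known to respond in T cells include Ptcra, the alpha chain of the pre-T cell receptor, Dtx1, a ubiquitin ligase of the pathway, and Notch3, a second receptor of the family.

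The sequences of 250 bases before the start of these 3 genes are shown because these genes were the only Notch targets that passed the test below. They are from RefSeq (GRCm38.p6), on the minus strand, read 5′ to 3′, with the core RBPJ motif TGGGAA in capitals. The motif was searched on both strands (TTCCCA is its reverse complement). The windows lie at chr17:46763713-46763962 for Ptcra, chr5:120711670-120711919 for Dtx1 and chr17:32166891-32167140 for Notch3.
Ptcra: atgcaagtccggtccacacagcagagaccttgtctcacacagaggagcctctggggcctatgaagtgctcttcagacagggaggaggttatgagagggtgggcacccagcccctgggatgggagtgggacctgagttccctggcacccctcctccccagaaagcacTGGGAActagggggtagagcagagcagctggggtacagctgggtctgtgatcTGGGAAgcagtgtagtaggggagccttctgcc
Dtx1: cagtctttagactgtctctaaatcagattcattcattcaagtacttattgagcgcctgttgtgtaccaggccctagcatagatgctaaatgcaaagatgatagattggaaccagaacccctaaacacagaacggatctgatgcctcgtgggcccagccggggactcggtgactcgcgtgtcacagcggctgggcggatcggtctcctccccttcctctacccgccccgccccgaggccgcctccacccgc
Notch3: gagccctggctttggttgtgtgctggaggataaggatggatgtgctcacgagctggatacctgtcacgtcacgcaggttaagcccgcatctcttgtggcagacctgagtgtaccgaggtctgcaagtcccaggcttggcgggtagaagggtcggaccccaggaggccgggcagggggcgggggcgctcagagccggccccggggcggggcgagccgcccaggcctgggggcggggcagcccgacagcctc
The window of Ptcra held the motif at positions -84 to -79 and -32 to -27 from the start, and those of Dtx1 and Notch3 did not hold these letters. Of 32851 mouse windows of this length, 21.6% held the motif and 2.77% held it 2 or more times. Of the 16 Notch target genes examined, 12 had a window, and the motif was in those of Cr2, Hes5, Lfng and Ptcra. A match describes the letters only.

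The 2 Notch1 probes gave log2 ratios of -0.83 and -0.74 in lymphoma 7, -2.15 and -1.53 in lymphoma 8, and -0.05 and 0.20 in lymphoma 14. Their mean over the 3 Notch1-low lymphomas was -0.85 ± 0.96, against 4.05 ± 1.25 in the 15 Notch1-high lymphomas (SD). Notch1 was thus near or below the level of thymus in the 3 lymphomas and far above it in most others. Within the Notch1-high set the lowest value was 1.59 in lymphoma 12, the next 1.68 in lymphoma 4, the median 4.14 and the highest 6.28 in lymphoma 18. Lymphoma 14 was the nearest to the threshold from below, and lymphomas 12 and 4 were nearer to it from above than lymphoma 14 was from below.

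**Figure D1:**
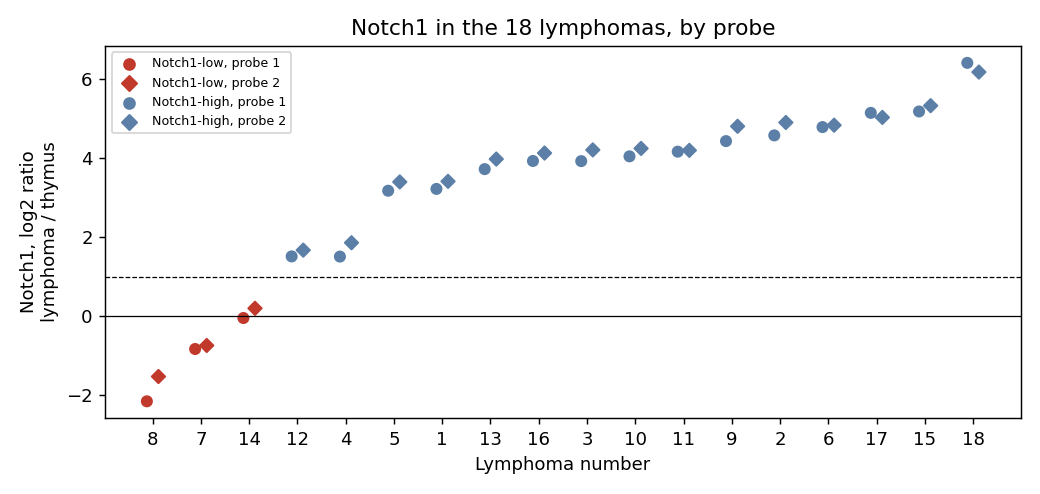
Notch1 in every lymphoma, as the log2 ratio of lymphoma over thymus for each of 2 probes (circles and diamonds), with the Notch1-low lymphomas at the left in red and the Notch1-high lymphomas in blue, each set ordered by its value. The dashed line is the threshold of 1; both probes of lymphomas 8, 7 and 14 lie below it, and lymphomas 12 and 4 are the Notch1-high lymphomas nearest to it.

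The 3 Notch1-low lymphomas were not alike. Each pair of lymphomas was correlated across those of the 18040 genes with a value in both. Lymphoma 8 correlated with the Notch1-high lymphomas at a median r of 0.62, lymphoma 14 at 0.25 and lymphoma 7 at 0.10. The lymphomas of the Notch1-high set had medians among themselves between 0.59 and 0.69, except lymphoma 12 at 0.30. The correlation was 0.12 between lymphomas 7 and 8, 0.23 between 7 and 14 and 0.37 between 8 and 14, so they did not form a tight group. Genes are not independent, and all values share the thymus RNA, so these figures only describe the arrays. Lymphoma 8 therefore resembled the Notch1-high lymphomas in most genes, lymphomas 7 and 14 stood apart from them, and every count below leans on which of the 3 is included.

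With the linear model of limma fitted over all genes and Benjamini-Hochberg adjustment, 152 of 18040 genes differed at an adjusted p under 0.05, which is 0.843% of the genes tested. Of these, 75 were lower (0.416%) and 77 higher (0.427%) in the Notch1-low lymphomas, and 143 differed at least 2-fold. Before adjustment, 3695 genes (20.5%) had a p under 0.05. The median difference over all genes was -0.02. The 3 Notch1-low values lay below all Notch1-high values for 147 genes (0.815%) and above them for 80 (0.443%), and 52 (0.288%) and 32 (0.177%) of these also passed the test. Without lymphoma 8 the model called 2025 genes, without lymphoma 7 it called 50 and without lymphoma 14 it called 16. The count was 454 without lymphoma 12, 96 without lymphoma 2 and 93 without lymphoma 16. With arrays weighted by how well they fit the model, in which lymphomas 14, 7 and 8 received the lowest weights (0.45, 0.53 and 0.60), 7 genes were called. Those 7 were also called in each of the 18 fits that left out 1 lymphoma and in all other planned settings: Ptcra, Dtx1, Dntt, F2, 5830418P13Rik and AI504432, which fell, and B4galt2, which rose. Of 40 genes that passed and are named by the rule given with the processing, 37 also passed without lymphoma 8, 15 without lymphoma 7 and 11 without lymphoma 14.

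**Figure D2:**
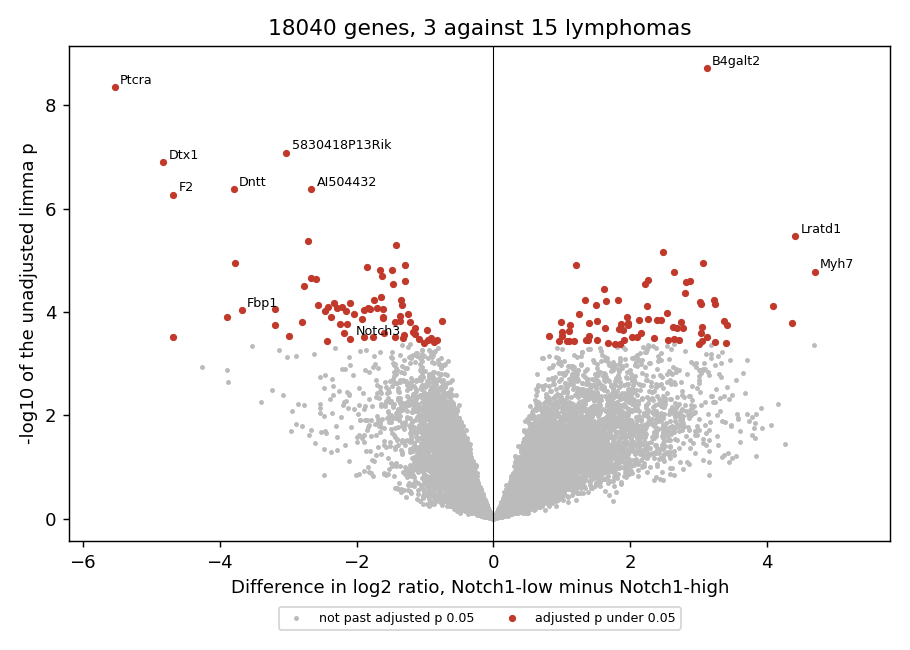
Each point is 1 of 18040 genes, placed by its difference in log2 ratio, Notch1-low minus Notch1-high (x axis), and by the -log10 of its unadjusted limma p (y axis). Red points pass an adjusted p of 0.05; Ptcra (-5.54) and Dtx1 (-4.82) stand farthest to the left among them and B4galt2 (3.12) has the smallest p.

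Among the Notch target genes, 3 of 16 fell, none rose, and the median difference was -1.02, while 0.416% of all genes tested fell, 0.427% rose and their median was -0.02. Ptcra was -4.43, -4.02 and -3.58 in Notch1-low lymphomas 7, 8 and 14, and -0.67 at the lowest, 1.54 at the median and 2.93 at the highest in Notch1-high lymphomas. It was below thymus by a wide margin in each of the 3 and above thymus in most of the others, with no overlap. The difference was -5.54 (SE 0.55), or 46.4-fold, with an adjusted p of 4.08e-05. Dtx1 was -1.91, -2.65 and -1.25 in Notch1-low lymphomas 7, 8 and 14, and 0.63, 3.24 and 3.99 at the lowest, median and highest in Notch1-high lymphomas. All 3 were below thymus and all 15 above it, a difference of -4.82 (SE 0.59), or 28.3-fold, with an adjusted p of 0.000572. Notch3 was 0.31, -1.48 and -0.16 in the Notch1-low lymphomas, and 0.36, 1.82 and 2.78 at the lowest, median and highest in the Notch1-high ones. Its values in lymphoma 7 and in the lowest Notch1-high lymphoma were close, and the difference of -2.10 (SE 0.48) passed at an adjusted p of 0.0465. Notch3 passed in 5 of the 18 fits that left out 1 lymphoma, while Ptcra and Dtx1 passed in all 18. The number of Notch targets that fell was 2 without lymphoma 7, without lymphoma 14 or with array weights. Without lymphoma 8, 4 fell and 1 rose, in a fit in which 814 of all 18040 genes fell and 1211 rose.

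The other 13 Notch targets did not pass the test. Hes1, a repressor that is the classical Notch target, was -0.22, -1.45 and 1.28 in Notch1-low lymphomas 7, 8 and 14, and -0.93 at the lowest, 2.45 at the median and 3.62 at the highest in Notch1-high lymphomas. Its groups overlapped through 1 low value among the Notch1-high lymphomas and the higher value of lymphoma 14 (difference -2.48, SE 0.73, adjusted p = 0.087). Il2ra, a chain of the interleukin 2 receptor, was -0.68, -2.11 and -2.12 in the Notch1-low lymphomas and varied widely in the Notch1-high ones, with -1.72, 1.07 and 5.56 at the lowest, median and highest (difference -2.89, SE 1.08, adjusted p = 0.149). Shq1, which encodes an assembly factor of small nucleolar ribonucleoproteins, had a difference of -1.14 (adjusted p = 0.0622), and Gfi1, a transcriptional repressor, one of -2.17 (adjusted p = 0.0675). Myc, the growth regulator that Notch1 drives in T cell leukaemia, was 1.33, -0.01 and 1.08 in Notch1-low lymphomas 7, 8 and 14, and 0.47, 1.65 and 2.88 at the lowest, median and highest in Notch1-high lymphomas. Its values overlapped, with a difference of -0.90 (SE 0.36, adjusted p = 0.171). Nrarp, a feedback inhibitor of the pathway, had the same mean in both sets (difference 0.00, SE 0.99, adjusted p = 0.999). Heyl, Igf1r and Cr2 had differences below 0 with adjusted p-values of 0.278 to 0.735. Differences above 0 were measured for Hes5, Hey1, Lfng and Rhou, with adjusted p-values of 0.115 to 0.569. The targets thus did not move as 1 block.

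**Figure D3:**
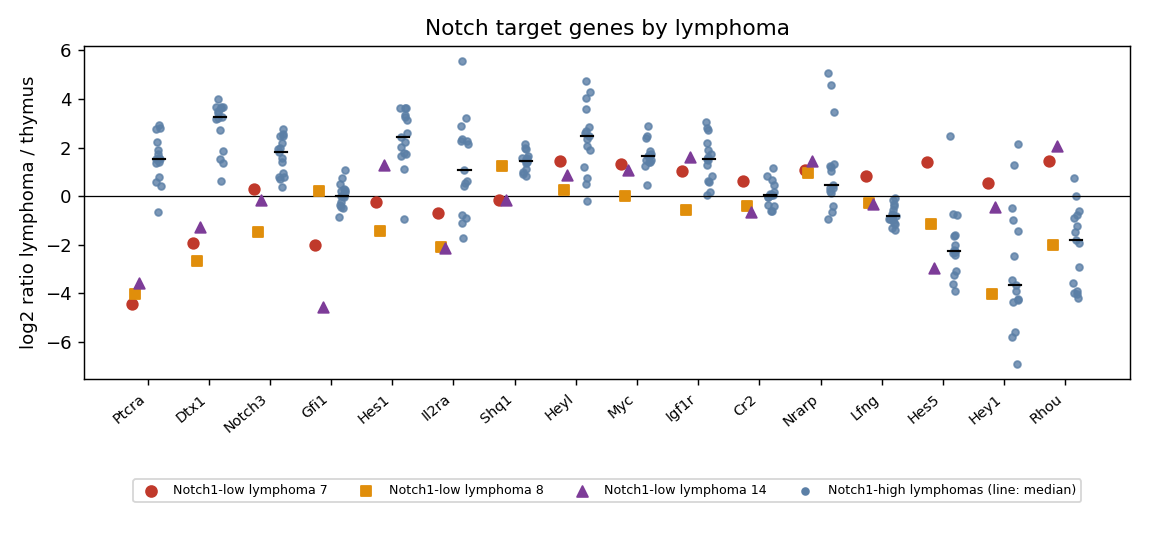
Log2 ratio of lymphoma over thymus (y axis) for the 16 Notch target genes (x axis), with Notch1-low lymphomas 7, 8 and 14 as large symbols at the left of each gene and the 15 Notch1-high lymphomas as small points at the right with their median as a line. Ptcra, Dtx1 and Notch3 show no overlap between the sets, while Hes1, Il2ra, Myc and Nrarp overlap.

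None of the 8 other Notch receptors and ligands passed the test, and all 8 had differences above 0, with a median of 1.49. Notch3, also a receptor, is not in this list. It is counted among the Notch targets above, where it fell. Of all 18040 genes, 8720 had differences above 0, and their median was -0.02. Jag1, a ligand, was 3.41, -0.92 and 1.03 in Notch1-low lymphomas 7, 8 and 14, and -2.23, -0.87 and 0.06 at the lowest, median and highest in Notch1-high lymphomas (adjusted p = 0.0766). Notch2 was 0.43, 0.11 and 2.01 in the Notch1-low lymphomas, and -0.46, -0.09 and 0.43 at the lowest, median and highest in the Notch1-high ones (adjusted p = 0.0787). Notch4, a receptor of endothelium, was 4.12 in lymphoma 14 and -0.17 and 0.20 in lymphomas 7 and 8. Dlk1, a ligand relative, was 4.60 in lymphoma 8 and 3.98 in lymphoma 14, and reached 4.14 in the Notch1-high lymphomas. The highest values of this group thus did not come from the same lymphoma for each gene. Of the 34 genes that process the receptor or act with it in the nucleus, 32 were measured and none passed, with a median difference of 0.16. Without lymphoma 8, 4 of the 8 receptors and ligands and 3 of these 32 genes rose. In that fit 1211 of all 18040 genes rose. None of either list passed without lymphoma 7, without lymphoma 14 or with array weights. Rbpj, the DNA-binding partner of the cut receptor, had 1.08, 0.68 and 2.26 in the Notch1-low lymphomas, and -0.18, 0.38 and 1.13 at the lowest, median and highest in the Notch1-high ones (difference 0.98, SE 0.28, adjusted p = 0.0857). The gamma-secretase genes Ncstn, Aph1a and Psenen and the ubiquitin ligase gene Fbxw7, which marks the cut receptor for destruction, had differences of -0.21, -0.11, 0.45 and -0.41, none past the test (adjusted p = 0.339 to 0.908).

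The CD4+ CD8+ (double-positive) thymocyte is the stage that follows the pre-T cell receptor. The list for this stage also holds Ptcra, of the step before it. Of its 17 measured genes, 7 fell and none rose in the Notch1-low lymphomas, with a median difference of -1.84, while 0.416% of all genes fell. The mean of the list was -3.67, -2.19 and -3.68 in Notch1-low lymphomas 7, 8 and 14. In the Notch1-high lymphomas it was -2.89, -1.40 and -0.53 at the lowest, median and highest, so lymphoma 8 was inside their range. The number that fell was 2, Ptcra and Dntt, without lymphoma 14, without lymphoma 7 or with array weights. It was 9 without lymphoma 8, a fit in which 814 of all 18040 genes fell. The coreceptor genes that name the stage, Cd4, Cd8a and Cd8b1, did not pass (adjusted p = 0.532, 0.356 and 0.154), and Cd8b1 ranged from -7.90 to -0.25 within the Notch1-high lymphomas. Ptcra, a chain of the pre-T cell receptor, is 1 of the 7 that fell. It is also counted among the Notch targets above, so the 2 results are not separate. Dntt, the terminal transferase that adds bases at the joints of antigen receptor genes, was -6.40, -3.03 and -4.52 in Notch1-low lymphomas 7, 8 and 14, and -1.87, -0.97 and 0.19 at the lowest, median and highest in Notch1-high lymphomas. The sets did not overlap, and the 13.9-fold difference (-3.79, SE 0.51) had an adjusted p of 0.00127. Rag1 and Rag2 encode the recombinase that cuts those genes. Rag1 was -4.98, -4.22 and -4.65 in the Notch1-low lymphomas, and -3.71, -2.74 and -1.08 at the lowest, median and highest in the Notch1-high ones. Rag2 was -3.26, -2.62 and -3.06 in the Notch1-low lymphomas, and -2.38, -1.09 and -0.28 at the lowest, median and highest in the Notch1-high ones. Both genes were below thymus in all 18 lymphomas and lowest in the 3, without overlap (differences -2.15 and -1.84, adjusted p = 0.028 and 0.0278). Arpp21, a phosphoprotein gene of immature thymocytes, and Endou, an endoribonuclease gene, also fell, with adjusted p-values of 0.0174 and 0.0452. In Endou lymphoma 8 did not share the decrease, with 0.28 against -4.75 in lymphoma 7 and -3.35 in lymphoma 14.

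Of 21 measured genes of T cell identity, 4 fell and none rose, with a median difference of -1.26, while 0.416% of all genes fell. The number that fell was 0 without lymphoma 14 or with array weights and 2 without lymphoma 7. It was 12 without lymphoma 8, a fit in which 814 of all 18040 genes fell. Cd3g and Cd3d encode chains of the CD3 complex that carries the T cell receptor signal. Cd3g was -2.17, -1.60 and -4.99 in Notch1-low lymphomas 7, 8 and 14, and -1.87, -0.37 and 0.89 at the lowest, median and highest in Notch1-high lymphomas. Lymphoma 8 lay above the lowest Notch1-high value, and lymphoma 14 was the lowest of all 18 (difference -2.57, SE 0.51, adjusted p = 0.0278). Cd3d also fell, with a difference of -1.92 (adjusted p = 0.0337). Lef1, a transcription factor of the Wnt pathway needed by early thymocytes, was -1.09, -0.93 and -1.92 in the Notch1-low lymphomas, and -0.61, 1.30 and 2.25 at the lowest, median and highest in the Notch1-high ones. It showed no overlap and differed by -2.42 (SE 0.48, adjusted p = 0.0278). Themis, a T cell receptor signalling gene of thymocytes, differed by -2.46 (adjusted p = 0.028) and is counted in both lists. Cd3e, Zap70, Lat and Bcl11b, defining genes of T cells, did not pass. They were -1.90, -2.80, -3.78 and -3.84 in lymphoma 14. Cd3e was -0.53 and -0.10 in lymphomas 7 and 8 and the kinase gene Zap70 was 0.65 and 0.41, with medians of 0.51 and 0.81 in the Notch1-high lymphomas. Cd3e and Zap70 were therefore near the level of thymus in lymphomas 7 and 8 and low in lymphoma 14. They do not stand for the whole list. Its mean was -1.22, -0.88 and -3.32 in Notch1-low lymphomas 7, 8 and 14. In the Notch1-high lymphomas it was -1.74, -0.39 and 0.265 at the lowest, median and highest. Lymphomas 7 and 8 were thus below that median but within the Notch1-high range. In bulk RNA, fewer cells of a type and less RNA per cell cannot be told apart.

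**Figure D4:**
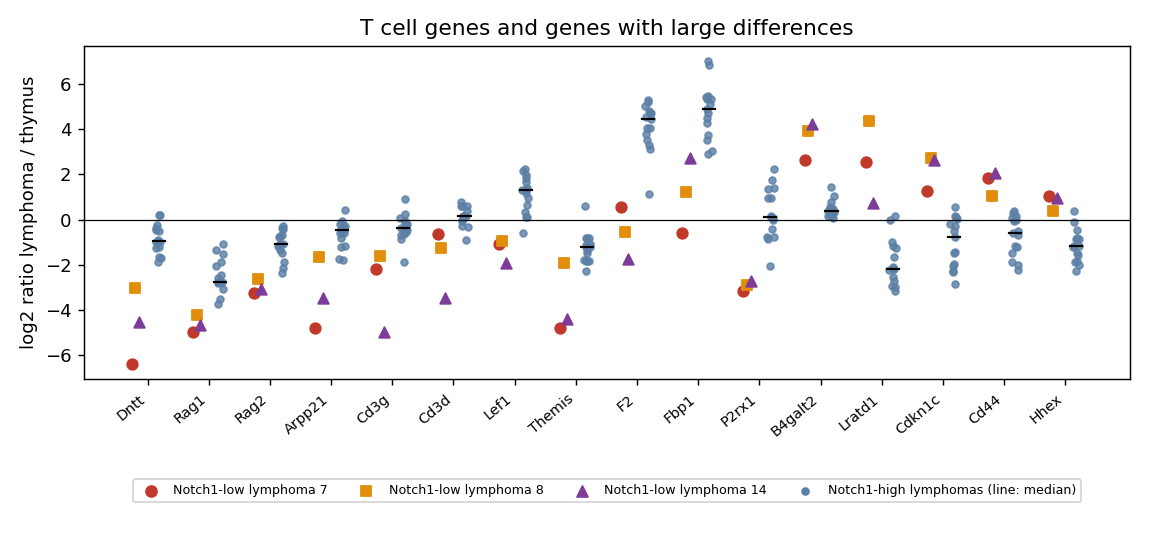
Log2 ratio of lymphoma over thymus (y axis) for 8 T cell genes at the left and 8 genes with large differences at the right, with Notch1-low lymphomas 7, 8 and 14 as large symbols and the 15 Notch1-high lymphomas as small points with their median as a line. Dntt, Rag1, Rag2 and Lef1 are lower in all 3 Notch1-low lymphomas than in any other, Cd3g and Cd3d are lowest in lymphoma 14, and B4galt2 and Cd44 are higher in all 3.

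Several of the largest decreases were in genes outside the Notch and T cell lists above. F2 encodes prothrombin, the clotting factor of the liver. It was 0.56, -0.57 and -1.73 in Notch1-low lymphomas 7, 8 and 14, and 1.11, 4.43 and 5.29 at the lowest, median and highest in Notch1-high lymphomas. All 15 Notch1-high lymphomas thus had F2 above thymus and above the 3 others, a difference of -4.68 (SE 0.64), or 25.7-fold, with an adjusted p of 0.00141. The hepatocyte list as a whole had no gene past the test among 8 measured. Fbp1, which encodes the gluconeogenic enzyme fructose-1,6-bisphosphatase, was -0.59, 1.22 and 2.72 in the Notch1-low lymphomas, and 2.90, 4.88 and 7.0 at the lowest, median and highest in the Notch1-high ones. The value of lymphoma 14 lay just under the lowest of the others, and the difference was -3.68 (SE 0.75, adjusted p = 0.028). P2rx1, an ion channel opened by extracellular ATP, was between -3.14 and -2.72 in the 3, and -2.05, 0.13 and 2.25 at the lowest, median and highest in the Notch1-high lymphomas (difference -3.19, SE 0.64, adjusted p = 0.0278). Paqr5, a membrane progestin receptor gene, and Rasal1, a gene for a GTPase-activating protein that switches Ras off, differed by -2.77 and -2.60 (adjusted p = 0.0186 and 0.0174). The genes 5830418P13Rik (-3.03, adjusted p = 0.000495), AI504432 (-2.66, adjusted p = 0.00127), Fam169b (-2.71, adjusted p = 0.00838) and Pgpep1l (-3.77, adjusted p = 0.015) fell without overlap. H2-Bl, an MHC class I gene with close paralogs, fell by 2.79 over its 3 probes (adjusted p = 0.0338), but 1 of the 3 probes had a difference of 0.54 in the other direction, so its level is uncertain. Of 14 named genes past the test with several probes, H2-Bl was the only such case. H2-T3, another MHC class I gene, chosen after its values were seen, was -1.21, -1.37 and -1.55 in Notch1-low lymphomas 7, 8 and 14, and -1.29, 2.91 and 5.50 at the lowest, median and highest in Notch1-high lymphomas. Its difference was -4.68 (SE 1.06, adjusted p = 0.0452). H2-T3 passed in 7 of the 18 fits that left out 1 lymphoma, and not with array weights (adjusted p = 0.439).

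Among the genes that rose, B4galt2, a galactosyltransferase gene of protein glycosylation, had the smallest p of all genes. It was 2.63, 3.91 and 4.23 in Notch1-low lymphomas 7, 8 and 14, and 0.07, 0.38 and 1.46 at the lowest, median and highest in Notch1-high lymphomas. Both of its probes showed this, and the 8.67-fold difference (3.12, SE 0.29) had an adjusted p of 3.5e-05. Lratd1 was 2.55, 4.38 and 0.71 in the Notch1-low lymphomas, and -3.14, -2.17 and 0.16 at the lowest, median and highest in the Notch1-high ones (difference 4.41, SE 0.68, adjusted p = 0.0077). It passed in each of the 18 fits that left out 1 lymphoma, but not with array weights (adjusted p = 0.172). Cdkn1c, the cyclin-dependent kinase inhibitor p57, was 1.27, 2.73 and 2.62 in the Notch1-low lymphomas, and -2.86, -0.78 and 0.57 at the lowest, median and highest in the Notch1-high ones. It lay above thymus in the 3 and mostly below it in the 15, a difference of 3.22 (SE 0.63, adjusted p = 0.0278). The transcription factor gene Foxc1 and the phosphatase gene Ubash3b, which dampens antigen receptor signalling, rose by 3.05 and 3.01 (adjusted p = 0.0367 and 0.0497), and they passed in 13 and 4 of the 18 fits that left out 1 lymphoma. Kctd15, Slc9b2, Nkain1, Ier5l and She rose without overlap, by 2.47 to 3.40; of these, Kctd15 passed in 4 of the 18 fits that left out 1 lymphoma. Fhod3, an actin regulator of heart muscle, also passed (difference 3.01, adjusted p = 0.0278), with 3.48 in lymphoma 14 and 0.02 and 0.07 in lymphomas 7 and 8. Kcna4, a potassium channel gene, had no value in lymphoma 7, and its difference of 2.68 (adjusted p = 0.0371) rests on lymphomas 8 and 14, at 4.37 and 1.39, and on 12 Notch1-high lymphomas. Myh7, a myosin heavy chain of heart and slow muscle, chosen after its values were seen, was 4.05, 3.20 and 2.88 in Notch1-low lymphomas 7, 8 and 14, and -2.59, -1.61 and 3.56 at the lowest, median and highest in Notch1-high lymphomas. Its difference of 4.69 (SE 0.82, adjusted p = 0.0154) was the largest increase past the test, although the highest Notch1-high value lay above those of lymphomas 8 and 14.

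Of 17 measured genes of early thymic progenitors, 2 rose, 1 fell, and the median difference was 1.13, while 0.427% of all genes rose and 0.416% fell. Cd44, an adhesion receptor that progenitors lose as they mature, was 1.85, 1.06 and 2.07 in Notch1-low lymphomas 7, 8 and 14, and -2.23, -0.58 and 0.38 at the lowest, median and highest in Notch1-high lymphomas. All 3 were above thymus and above every other lymphoma (difference 2.39, SE 0.51, adjusted p = 0.0337). The probes of Cd44 had differences of 0.25, 2.90 and 4.02, so the size of its increase is uncertain. Hhex, a homeobox factor of progenitors, was 1.04, 0.38 and 0.96 in the Notch1-low lymphomas, and -2.29, -1.18 and 0.36 at the lowest, median and highest in the Notch1-high ones (difference 1.96, SE 0.42, adjusted p = 0.0338). The probes of Hhex were also unlike in size, with differences of 0.80 and 3.1. Runx1, a transcription factor of blood stem cells and thymocytes, fell by 1.14 (adjusted p = 0.0423). Kit, Flt3 and Lyl1 did not pass, and Cd34 was 3.85 in lymphoma 14 and -1.37 and -1.38 in lymphomas 7 and 8. None of the 17 passed without lymphoma 7, without lymphoma 14 or with array weights. Without lymphoma 8, 2 fell and 5 rose, in a fit in which 814 of all 18040 genes fell and 1211 rose. Cd44 is also made by many other cells, and the lists of stromal and myeloid cells described below had median differences above 0 too. Their part in the result was not tested.

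Of 20 oncogenes of T cell leukaemia, 2 fell, Runx1 and Ccnd3, and of 20 suppressors 3 fell, Lef1, Runx1 and Ezh2, so that Runx1 stands in both lists. Over all genes the share that fell was 0.416%. Ccnd3, cyclin D3, which immature thymocytes need to divide, was -1.51, -1.17 and -1.45 in Notch1-low lymphomas 7, 8 and 14, and -1.17, -0.23 and 0.38 at the lowest, median and highest in Notch1-high lymphomas. The value of lymphoma 8 was all but equal to the lowest Notch1-high value, and the difference was -1.09 (SE 0.25, adjusted p = 0.0466). Ezh2, the methyltransferase of the Polycomb complex, fell by 1.18 (adjusted p = 0.0416), with lymphoma 8 inside the range of the others. In the Bcl2 family 1 of 13 genes fell and none rose. This was Bid, which links death receptors to mitochondria, at -1.02, -0.48 and -1.0 in the Notch1-low lymphomas, and 0.01, 0.63 and 1.47 at the lowest, median and highest in the Notch1-high ones (difference -1.46, SE 0.27, adjusted p = 0.0182). All 3 Notch1-low lymphomas were below thymus in Bid and all 15 others at or above it. None of the genes that fell in these 3 lists passed without lymphoma 7, without lymphoma 14 or with array weights. Ccnd3 passed in 3, Ezh2 in 7, Runx1 in 8 and Bid in 16 of the 18 fits that left out 1 lymphoma.

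None of 28 DNA replication genes passed the test, although all 28 had differences below 0, with a median of -0.64. Of all 18040 genes, 9320 had differences below 0, and their median was -0.02. The mean of the list was 0.04, 0.66 and -0.62 in Notch1-low lymphomas 7, 8 and 14, and lay between 0.31 and 1.02 in the Notch1-high lymphomas, so lymphoma 8 was inside their range and lymphomas 7 and 14 below it. Of 20 mitosis genes 1 fell, Mki67, the proliferation marker Ki-67, at -0.86, -0.61 and -1.56 in the Notch1-low lymphomas, and -0.45, -0.17 and 0.28 at the lowest, median and highest in the Notch1-high ones (difference -0.82, SE 0.19, adjusted p = 0.0466). Over all genes the share that fell was 0.416%. Mki67 passed in 3 of the 18 fits that left out 1 lymphoma. Without lymphoma 8, 15 of the 28 DNA replication genes and 7 of the 20 mitosis genes fell. In that fit 814 of all 18040 genes fell. None of either list passed without lymphoma 7, without lymphoma 14 or with array weights. All 13 cholesterol synthesis genes also had differences below 0, with a median of -0.66, and none passed. Members of such lists vary together, so a shared sign is no count of independent events.

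Markers of cells other than T cells were read in the same way. Lymphoma 14 stood out in several lists and lymphoma 7 in others. No gene of the lists for macrophages and monocytes (17 measured), endothelium (14), fibroblasts and matrix (15), striated muscle (12), B cells (17) or natural killer cells (16) passed the test. The median differences were 2.19, 1.72, 1.97, 2.29, 0.03 and 0.65 for these lists, against -0.02 for all genes. The mean of the macrophage list was 0.33, 0.24 and 2.46 in Notch1-low lymphomas 7, 8 and 14, and between -3.12 and 1.27 in the Notch1-high ones. For fibroblasts and matrix the mean was -0.13, 0.74 and 3.50 in the Notch1-low lymphomas, and between -2.44 and 1.08 in the Notch1-high ones. That of endothelium was 0.21, 0.20 and 2.60, against -1.78 to 0.53, and that of striated muscle -0.06, -0.51 and 3.26, against -2.13 to 2.92. Lymphoma 14 was thus above every Notch1-high lymphoma in all 4 lists, while lymphomas 7 and 8 were within their range. Collagen genes were highest in lymphoma 14, with Col1a1 at 4.88 there, against 0.34 and 2.47 in lymphomas 7 and 8 and a median of 0.63 in the Notch1-high lymphomas. Col3a1 was 4.19 in lymphoma 14, against -0.57 and 1.41 in lymphomas 7 and 8. Lymphoma 7 differed from lymphomas 8 and 14 in markers of thymic epithelium, in which it was within the Notch1-high range. Its thymic epithelium list averaged -0.58, with Krt5 at 2.62, Krt14 at 2.33 and Aire, the regulator of self-antigens in the thymic medulla, at 2.02, while Prss16 and Psmb11, genes of the thymic cortex, were -4.27 and -4.54. Lymphomas 8 and 14 averaged -3.62 and -2.54 in that list. The Notch1-high lymphomas ranged from -3.91 to 0.11, the value of lymphoma 12, with a median of -3.34. Lymphoma 7 was above every Notch1-high lymphoma in the mature T cell list, at -0.48 against -0.67 at the highest. It was also above them all in lists of other cells, neutrophils (-0.11 against -0.67), plasma cells (0.49 against -0.03) and hepatocytes (0.11 against -0.36). No gene of these lists passed the test, and lymphomas 8 and 14 were within the Notch1-high range in them. The part of these other cells in the T cell and Notch results of lymphomas 7 and 14 was not tested. Lymphoma 8, with Ptcra at -4.02, Dtx1 at -2.65 and Notch3 at -1.48, lay within the Notch1-high range in each of these lists.

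**Figure D5:**
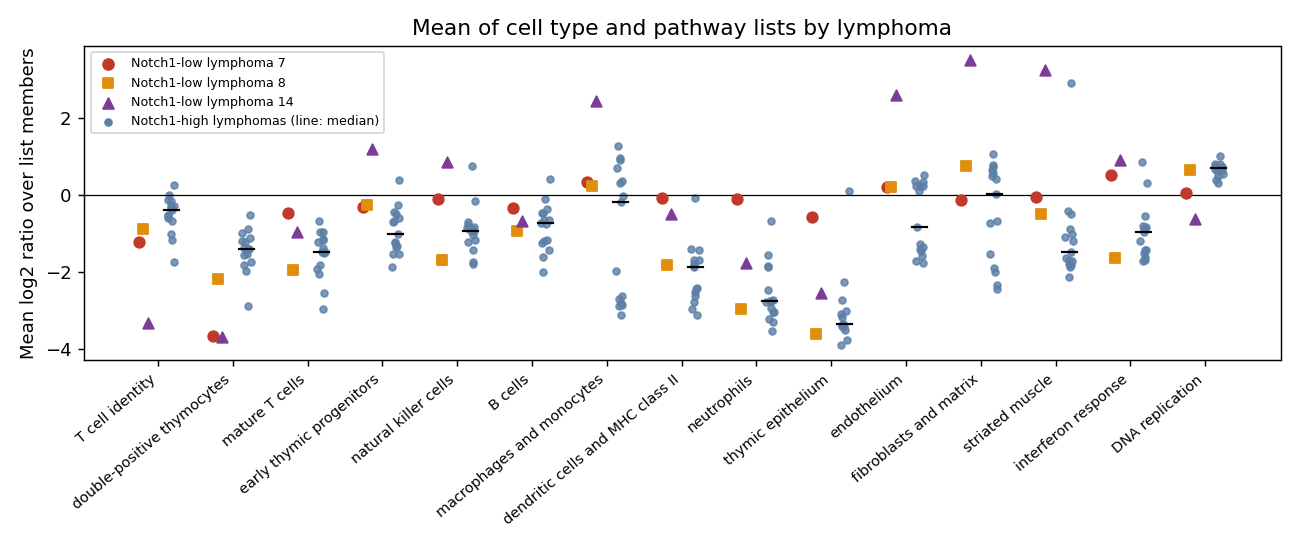
Mean log2 ratio over the members of each list of marker or pathway genes (y axis, 15 lists along the x axis), with Notch1-low lymphomas 7, 8 and 14 as large symbols and the 15 Notch1-high lymphomas as small points with their median as a line. Lymphoma 14 is lowest in T cell identity (-3.32) and highest in macrophages, endothelium, fibroblasts and striated muscle, and lymphoma 8 lies within the Notch1-high points in all of these lists.

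Lymphoma 8 alone was also set against the 15 Notch1-high lymphomas, a comparison chosen after the data were seen. A lone sample has no spread of its own and is assumed to vary like the 15, so the values only describe lymphoma 8. The model called 24 genes, 19 higher and 5 lower, and 5 of them were among the 152 called with all 3 lymphomas. Ptcra (-5.54, adjusted p = 0.0172) and Dtx1 (-5.53, adjusted p = 0.0239) were lower in it, and B4galt2 (3.44, adjusted p = 0.000626), Kcna4 (4.17, adjusted p = 0.00328) and Lratd1 (6.24, adjusted p = 0.0127) higher. Other increases were seen in lymphoma 8 and not in the other 2, including Acrv1, a protein of the sperm acrosome, at 6.10 in lymphoma 8 and 0.58 and -0.30 in lymphomas 7 and 14, and Smlr1, at 6.97, 0.86 and 0.66. Of 15 measured genes of the chromosome 8 stretch from Erlin2 to Fgfr1, a stretch picked after its values were seen, lymphoma 8 was above all Notch1-high lymphomas in 13, lymphoma 14 in 5 and lymphoma 7 in 1. Over all genes this held for 6.54% in lymphoma 8, 17.6% in lymphoma 14 and 14.9% in lymphoma 7. Fgfr1, a growth factor receptor gene, was 0.16, 1.14 and 3.75 in lymphomas 7, 8 and 14, and -0.08, 0.19 and 1.03 at the lowest, median and highest in the Notch1-high lymphomas.

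The genes called with 1 lymphoma left out were then read in the lymphoma that had been left out. The fit without lymphoma 14 called 16 genes, and lymphoma 14 lay on the same side of the Notch1-high mean in 14 of them and beyond all Notch1-high lymphomas on that side in 11 (68.8%). For lymphoma 7 the figures were 39 and 23 of 50 (46.0%). For lymphoma 8 they were 1126 and 182 of 2022 with a value (9.0%), and 1742 of the 2022 were within the Notch1-high range in it. Over all genes, 17.6% were above and 19.1% below the Notch1-high range in lymphoma 14, 14.9% and 13.3% in lymphoma 7, and 6.54% and 5.37% in lymphoma 8. The share within the range in lymphoma 8 was 86.2% for those 2022 genes and 88.1% for all genes, so it was close to the background.

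The genes whose values followed Notch1 most closely over the 18 lymphomas were Dtx1 (Pearson r = 0.94), Rasal1 (0.90), Ptcra (0.86), 5830418P13Rik (0.85) and Wdr25 (0.85), and those most opposed were Erlin2 (-0.88), Cdkn1c (-0.83), Foxc1 (-0.83), Lratd1 (-0.83) and Gtsf1 (-0.82), among 17000 genes with a value in every lymphoma. Since the lymphomas fall into 2 sets, these values describe the division again. Within the 15 Notch1-high lymphomas, 16 relations between Notch1 and its targets were computed. Dtx1 had r = 0.73 (permutation p = 0.00217, Benjamini-Hochberg adjusted p = 0.0347) and rho = 0.52 (permutation p = 0.0507, adjusted p = 0.549). Without lymphomas 4 and 12, the farthest from the median of Notch1, r was 0.37 (permutation p = 0.209), so the relation rests on those lymphomas. The other 15 had r between -0.46 and 0.50 with adjusted p-values of 0.408 or more, Ptcra included (r = 0.40, permutation p = 0.135, rho = 0.49, permutation p = 0.0686). Within the Notch1-high set, a relation between the level of Notch1 and that of its targets was thus not shown.

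Notch1 lies on chromosome 2. Its nearest named neighbours in gene order, Pmpca, Inpp5e and Sec16a on one side and Egfl7, Agpat2 and Dipk1b on the other, did not pass the test, with differences of -0.50, -0.77, -0.41, 0.54, -0.33 and -0.92 (adjusted p = 0.458 to 0.801). None of these neighbours was thus called, but this cannot show that they were unchanged. In simulated data the model found a median of only 26.5% of genes shifted by 1 log2 unit. A shared change of the region was not tested.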

How the data were processed

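Total RNA of 18 lymphomas was measured against 1 thymus RNA, per the labels. The authors deposited 1 log10 ratio per probe and lymphoma, for 41175 probes; that the base is 10 was inferred, and scale, centring and direction are not stated. How features were extracted and normalized, and how both dye orientations became 1 value, was not given in the sources used here. Array medians were -0.04 to 0.12 after conversion to log2 (factor 3.3219). If the direction were the other one, every sign would turn.

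Probes were named through the platform annotation (31700 with 1 gene, 47 with several, 9428 without), and RefSeq (GRCm38.p6) was used for names and gene order. Probes needed a value on 14 arrays, which 37295 had, and probes of 1 gene were averaged. Genes needed 2 Notch1-low and 12 Notch1-high values. Of 18041 genes, 17001 were complete, and 337 lacked 1 Notch1-low lymphoma. Missing probes made up 5.07% to 7.16% of an array in the Notch1-low lymphomas and 2.27% to 7.79% in the Notch1-high ones. Signal over background was not used; precision is limited by the number of arrays. No columns of other samples were present.

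The sets were compared with limma 3.58.1 in R 4.3.3 (lmFit, eBayes), with all 18 arrays, no covariate, Benjamini-Hochberg adjustment over 18040 genes and a threshold of 0.05. In 20 draws of simulated data (17000 genes, 200 of them shifted), the model found a median of 26.5% of genes shifted by 1 log2 unit and 72.5% of those shifted by 2. False calls in these draws numbered 4 at the median and 11 at most. They are no estimate of the false calls in the lymphomas, where the number of genes called fell to 7 with array weights. Correlations were tested by permutation (scipy 1.17.1). Tried as alternatives were quantile normalization, centring, scaling, 1 probe per gene, other filters on missing values, array weights, robust eBayes, a turned sign and leaving out each lymphoma. The division, the gene lists and the lymphomas of each set were chosen with earlier results of these data known, so the p-values describe these samples. The text names Notch1, the Notch lists, the 12 largest non-overlapping differences in each direction that passed, up to 4 members of each list, the neighbours of Notch1 and the genes most like or opposed to it, and further list members added after their values were seen. The transcript of the third deleted gene is not reported here.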

Additional observations from a re-analysis of the deposited data

How the results depend on the processing

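The count of 152 genes depended on which lymphomas were included. Leaving out 1 lymphoma gave 16 to 2025 called genes (8 to 1211 higher, 8 to 814 lower, 16 to 1782 at least 2-fold). The lowest count was without lymphoma 14 and the highest without lymphoma 8; 14 and 148 of the 152 were called there. Array weights gave 7 (1 higher, 6 lower, 7 at least 2-fold). Quantile normalization gave 214, of which 127 were lower. The comparison of lymphoma 8 alone, added after the data were seen, gave 24 (19 higher, 5 lower, 24 at least 2-fold). Leaving out lymphomas 4 and 12 together, also added later, gave 354 (209 higher, 145 lower, 324 at least 2-fold), with all 152 among them. The other planned settings gave 117 to 166. The number of Notch targets correlated with Notch1 in the Notch1-high lymphomas, 1, was 0 with quantile normalization, with scaled arrays and without lymphomas 4 and 12. Apart from the fits with fewer lymphomas, the cause of these shifts was not tested. For the named genes, 5728 alternative values kept their side of the threshold, 116 passed it newly, 258 no longer passed, and 0 changed sign with a call. No paired analysis was possible because each lymphoma has a number of its own and nothing pairs lymphomas between the sets.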

Other observations

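Some genes that fell in the Notch1-low lymphomas stood beside each other on the chromosome, 14 of the 75 that fell. This was looked for after the values were seen and was not tested. Among 18006 measured genes placed in RefSeq gene order, 8 pairs of direct neighbours both passed the test, 7 of them lower and 1 higher, and no pair moved in opposite directions. Some of the pairs hold genes of related function, Rag1 with Rag2, Cd3g with Cd3d, and, higher, the kinase genes Mapk11 with Mapk12. Others do not share a known function. Rasal1 stands beside Dtx1 on chromosome 5, and the next measured genes on either side, Ddx54 and Oas2, had differences of -0.59 and 1.0 that did not pass (adjusted p = 0.295 and 0.378). Pgpep1l (-3.77) and Fam169b (-2.71) are neighbours on chromosome 7, Kcna3 (-1.62, adjusted p = 0.0174) and AI504432 (-2.66) on chromosome 3, 5830418P13Rik (-3.03) and Bfsp2 (-1.37, adjusted p = 0.0322) on chromosome 9, and Gm38457 (-2.19, adjusted p = 0.042) and Klf3 (-1.61, adjusted p = 0.033) on chromosome 5. Kcna3 encodes a potassium channel of T cells, and Klf3 a transcription factor.

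None of 7 measured gamma-delta T cell genes passed, 4 had differences below 0 and the median was -0.76. Of all 18040 genes, 9320 had differences below 0. The mean of the list was 1.54, -0.05 and 0.30 in Notch1-low lymphomas 7, 8 and 14, and between -0.66 and 1.51 in the Notch1-high ones. Icos, chosen after its values were seen, a costimulatory receptor gene of activated T cells, was 3.65 in lymphoma 7, -4.80 in lymphoma 8 and -3.58 in lymphoma 14, with -0.31 as the highest value in the Notch1-high lymphomas.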
